A study of Rattus norvegicus with 14 samples.

Results

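The 8 genes Flt1, Kdr, Vegfa, Vwf, Pecam1, Cdh5, Tek and Tie1 encode a vascular growth factor, its receptors and proteins by which endothelial cells are usually recognised. They were taken by symbol: every non-control probe was included whose gene name, or RefSeq symbol matched by accession, was one of these. Probe descriptions were not searched. This gave 13 of 41012 probes, and 12 of these were bright enough to be tested. Total RNA of 7 rat cell lines had been hybridized to 14 Agilent one-colour arrays, an array A and an array B per line, in a study of stem cell lines with features of the hypoblast grown under the conditions used for multipotent adult progenitor cells (MAPC). The blastocyst-derived lines were Fi1 (Fischer strain, male), Fi2 (Fischer, female) and Wk8 (Wistar-Kyoto, female). The bone marrow lines were CL19 (Fischer, female), 3C3 (Fischer, male) and RMAPC-1 (Fischer, male). RClone-2 (Fischer, male), a mesenchymal line, was the only control, so that what is seen in it cannot be told apart from a property of 1 line. No treatment is named for any line.

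Vegfa is the secreted growth factor that drives vessel growth. It binds the receptor tyrosine kinases Kdr, which carries most of the growth signal in endothelial cells, and Flt1, which binds the factor tightly, signals weakly and is also made as a soluble trap. Tek is the receptor of the angiopoietins and Tie1 its partner receptor, while Pecam1 and Cdh5 hold endothelial cells together and Vwf is a clotting glycoprotein stored by endothelial cells and megakaryocytes. The hypoblast, or primitive endoderm, is the layer of the blastocyst that gives rise to the visceral and parietal endoderm of the yolk sac.

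The array read each gene with probes of 60 bases, placed by the files on the rn4 rat assembly. The probes below carry most of the results that follow, and the Vegfa pair is shown because its probes differ in whether they passed the test against RClone-2. All are in lower case, except that capitals mark the ATG with which 1 Vegfa probe begins.
Flt1 A_44_P520123: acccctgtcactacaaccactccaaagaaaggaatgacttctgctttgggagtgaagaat
Vegfa A_43_P15572: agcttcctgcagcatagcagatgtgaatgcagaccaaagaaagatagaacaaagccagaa
Vegfa A_44_P300751: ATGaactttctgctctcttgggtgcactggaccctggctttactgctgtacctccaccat
Tie1 A_44_P520235: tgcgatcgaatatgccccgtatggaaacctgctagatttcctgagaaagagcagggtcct
Tek A_44_P534601: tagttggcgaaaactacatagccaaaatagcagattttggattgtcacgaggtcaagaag
Pecam1 A_44_P305223: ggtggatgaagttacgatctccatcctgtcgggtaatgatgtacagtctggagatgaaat
Vwf A_44_P1025918: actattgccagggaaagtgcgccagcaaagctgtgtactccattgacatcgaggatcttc
The Flt1 probe lies on the plus strand of chromosome 12 between 7924711 and 7941808. Its 60 bases are spread over 17098 bases of genome, so it is placed in separate blocks. The other Flt1 probe, A_43_P12015, lies at 8035639 to 8035698 of the same strand, 93.8 kb further along. The Vegfa probes lie on chromosome 9, at 10528580 to 10528965 for A_43_P15572 and 10521744 to 10521803 for A_44_P300751. The Tie1 probe lies on chromosome 5 at 138950263 to 138950322 (minus strand), the Tek probe on chromosome 5 at 115178576 to 115178635, the Pecam1 probe on chromosome 10 at 96057717 to 96057776 (minus strand) and the Vwf probe on chromosome 4 at 161853997 to 161854486. The exons at these positions were not looked up, because no annotation of this build was used here.

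Promoters of 4 of the 8 genes, Flt1, Kdr, Tie1 and Vegfa, were matched in the RefSeq promoter table, which gives 250 bases before and 50 after the gene start on the GRCr8 assembly. Those of Flt1, Kdr and Tie1 are shown because these 3 receptor genes moved the same way between blastocyst and bone marrow lines. Capitals mark GGAAG, the core of ETS factor sites, on either strand (CTTCC on the other) and TGACGTCA, the full cyclic AMP response element, which reads the same on both strands. They were searched on both strands, and no marked motif overlapped another.
Flt1 promoter: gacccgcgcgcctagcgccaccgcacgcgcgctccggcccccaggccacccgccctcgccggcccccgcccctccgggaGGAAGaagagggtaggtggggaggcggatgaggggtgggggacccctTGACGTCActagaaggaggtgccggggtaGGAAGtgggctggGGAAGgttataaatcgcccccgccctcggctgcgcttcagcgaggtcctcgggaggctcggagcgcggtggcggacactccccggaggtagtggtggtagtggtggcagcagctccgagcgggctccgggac
Kdr promoter: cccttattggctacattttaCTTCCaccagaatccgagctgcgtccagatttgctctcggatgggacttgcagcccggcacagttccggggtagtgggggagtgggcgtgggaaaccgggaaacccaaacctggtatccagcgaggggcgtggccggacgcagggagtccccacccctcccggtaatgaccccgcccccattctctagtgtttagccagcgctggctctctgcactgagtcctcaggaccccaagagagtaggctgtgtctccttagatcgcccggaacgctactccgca
Tie1 promoter: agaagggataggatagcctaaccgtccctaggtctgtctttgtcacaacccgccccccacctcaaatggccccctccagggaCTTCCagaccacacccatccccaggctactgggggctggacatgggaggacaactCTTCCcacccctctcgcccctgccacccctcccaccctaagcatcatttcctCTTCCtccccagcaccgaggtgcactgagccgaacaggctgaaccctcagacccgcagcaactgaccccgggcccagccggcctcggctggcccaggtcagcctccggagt
The Flt1 window (chr12:12333180-12333479, plus strand) held the response element once, 124 bases before the start, and 3 ETS cores. The response element occurred in 1.83% of the 33469 promoters of the table. The Kdr window (chr14:32571813-32572112, plus strand) held 1 ETS core and the Tie1 window (chr5:137304932-137305231, minus strand) held 3, but 70.1% of all promoters held at least 1. None of these windows, nor the 2 of Vegfa, held ACGTG, the core of the hypoxia response element, which occurred in 19.3% of all promoters. These matches describe letters only.

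On each array 61.7% to 68.0% of all probes were well above background, and none of the member probes was saturated. A level below is the log2 processed signal minus the 75th percentile of the same array, so 0 is the signal at that percentile. That percentile was 745.67 to 891.46 on blastocyst arrays, 558.88 to 660.14 on bone marrow arrays, and 598.96 and 630.71 on the RClone-2 arrays. The line was the replicate, with arrays A and B averaged, because the labels do not say whether they come from separate cultures. The p-values are limma's, adjusted over all 29309 tested probes, and RClone-2 takes its spread from the other lines. Probes differ in brightness, so levels are compared between lines only.

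Arrays A and B of RMAPC-1 did not match each other. Member calls and list counts that were lost or moved by over 1.5 times without an array or the line are given both ways. Single calls of other list genes are given so only in part. In RMAPC-1 16.6% of the tested probes differed by more than 1 log2 unit between A and B, against 3.06% to 6.33% in the other 6 lines. Among the 12 tested member probes 11 were higher on array B of RMAPC-1, and 6 of them by more than 1. The widest gap was that of Flt1 (3.13), followed by Vwf (1.79), the dim Tek probe (1.74), the bright Tek probe (1.69) and Pecam1 (1.55). The Vegfa gaps were 0.10 and 0.03. No other line had more than 1 member probe with a gap over 1. The slides also divided the lines, since slides 1 and 3 held the blastocyst lines and CL19 while slides 2 and 4 held 3C3, RMAPC-1 and RClone-2.

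**Figure D1:**
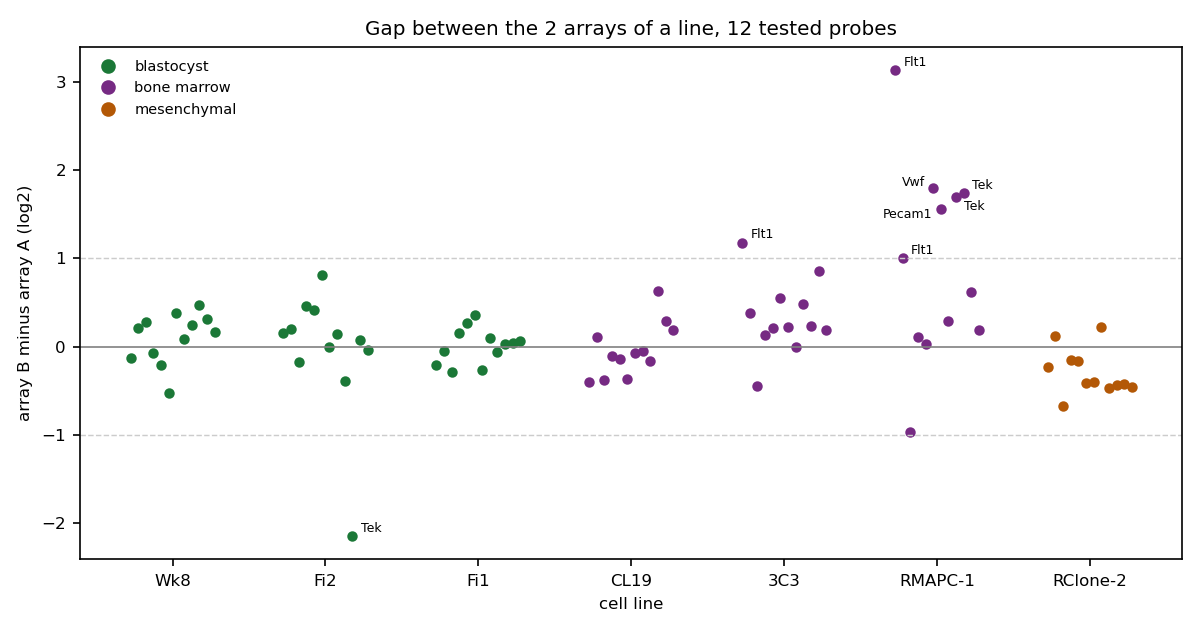
Difference between array B and array A (log2) for each of the 12 tested member probes, by line. Points are probes, colours are the origins of the lines, dashed lines mark a difference of 1, and probes beyond it are named. RMAPC-1 reached 3.13 for Flt1, whereas the other lines stayed within 1 except for 1 probe each of Fi2 and 3C3.

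In blastocyst lines 7 of the 12 tested member probes were higher than in bone marrow lines, and none was lower. They belonged to 5 genes: Flt1, Kdr, Tie1, Tek and Vwf. With a term for slide pair in the limma fit none of the 12 passed (6 had an unadjusted p under 0.05) and the Flt1, Vwf, Tie1, Tek and Kdr differences kept their direction, and with the slide as a block 3 passed. Without array A of RMAPC-1 4 passed. Of all tested probes 32.4% passed, 9.13% as higher and 23.3% as lower. The median difference was 1.20 over the 12 member probes and -0.20 over all tested probes. Line means of the groups did not overlap for 8 of the 12 member probes, against 52.0% of all probes. The balance of calls over all probes depends on the scaling: 28.2% of the called probes were higher in blastocyst lines with the 75th percentile, 40.9% with quantile normalization and 84.7% with no scaling, while the median of all probes was 0.28 with no scaling.

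**Figure D2:**
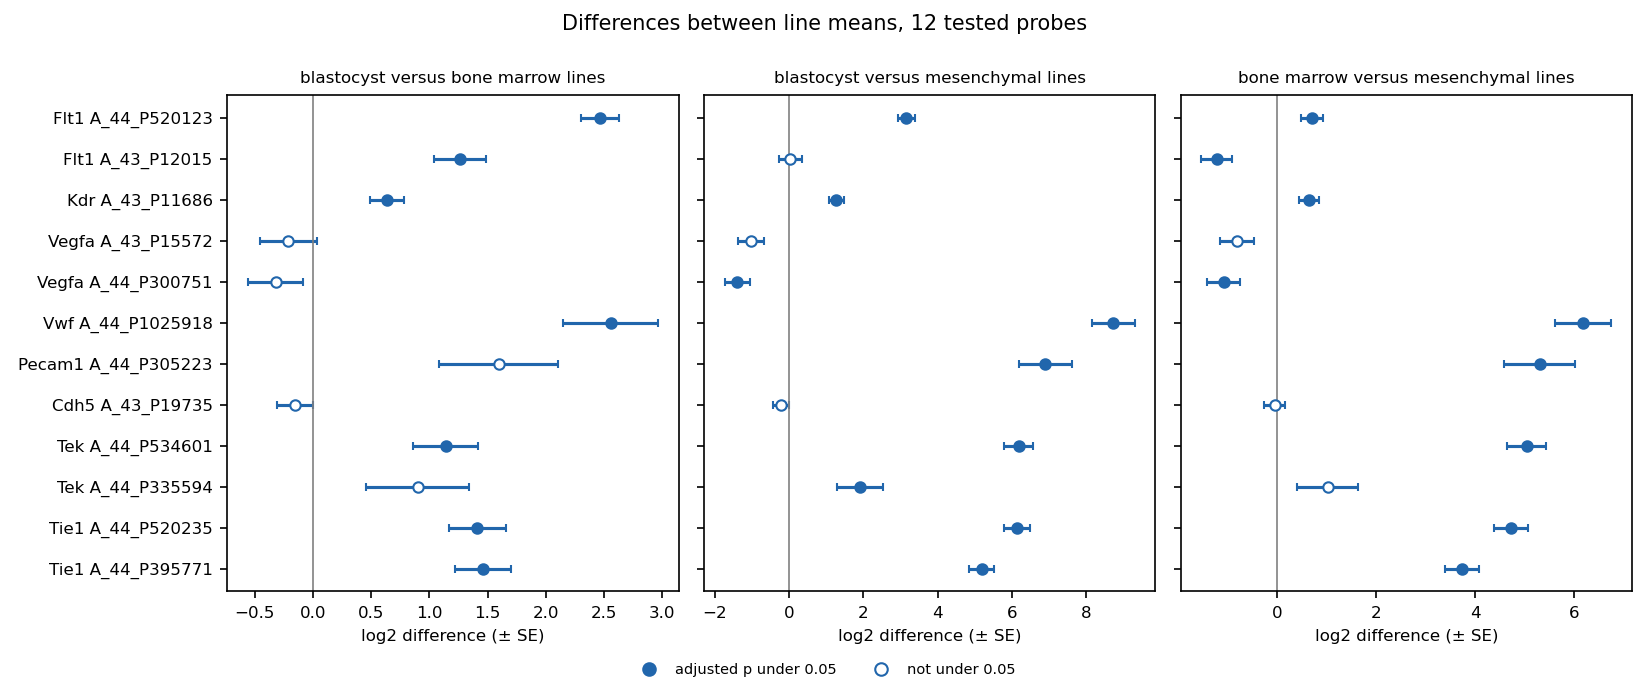
Log2 difference between group means of lines for each tested member probe in the 3 comparisons. Bars are the standard errors from limma, filled points have an adjusted p under 0.05, and the horizontal scales differ. Flt1, Kdr, Tie1, Tek and Vwf lie above 0 in the left panel, and the points of Vegfa and Cdh5 lie near 0.

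Vegfa, the ligand, was bright in all 7 lines. On A_43_P15572, which is spotted 10 times on each array, its levels on arrays A and B were -0.65 and -0.49 in Fi1, -0.38 and 0.09 in Fi2, and -0.02 and -0.10 in Wk8. They were 0.15 and 0.04 in CL19, -0.56 and -0.43 in 3C3, 0.20 on array A and 0.30 on array B of RMAPC-1, and 0.84 and 0.69 in RClone-2. Blastocyst and bone marrow lines overlapped, and RClone-2 lay above all of them. The difference between blastocyst and bone marrow lines was -0.21 ± 0.25 (SE, 3 lines each, adjusted p = 0.542) on this probe and -0.32 ± 0.24 (adjusted p = 0.338) on A_44_P300751. Without scaling between arrays these differences had the opposite sign (0.27 and 0.16).

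Against RClone-2 the Vegfa probes shared a direction but fell on different sides of the threshold. On A_44_P300751 the levels averaged -0.48 ± 0.30 in blastocyst lines and -0.16 ± 0.35 in bone marrow lines (SD, n = 3 lines each), and they were 1.01 and 0.84 on the RClone-2 arrays. This probe was lower by 1.40 ± 0.34 (log2, SE) in blastocyst lines (2.65-fold, adjusted p = 0.0166) and by 1.09 ± 0.34 in bone marrow lines (2.12-fold, adjusted p = 0.0406). On A_43_P15572 the differences were -1.02 ± 0.35 (adjusted p = 0.0526) and -0.81 ± 0.35 (adjusted p = 0.103). In bone marrow lines A_44_P300751 no longer passed without Fi2, Wk8, 3C3 or CL19 (adjusted p 0.0518 to 0.0625) or on dropping array A of RMAPC-1 (adjusted p = 0.0515). Both comparisons use the same RClone-2 arrays.

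Flt1 separated every blastocyst array from every bone marrow array. On A_44_P520123 its levels were 2.54 and 2.33 in Fi1, 2.52 and 2.67 in Fi2, and 2.94 and 2.81 in Wk8. In the bone marrow lines they were 0.56 and 0.16 in CL19, -0.54 and 0.64 in 3C3, and -1.45 on array A against 1.68 on array B of RMAPC-1. All 6 blastocyst arrays lay above all 6 bone marrow arrays, and array B of RMAPC-1 came nearest to them. Flt1 was 5.52-fold higher in blastocyst lines (log2 difference 2.46 ± 0.16, adjusted p = 0.00356). Without array A of RMAPC-1 the difference was 1.94 (adjusted p = 0.0335), and without array B it was 2.99 (adjusted p = 0.0120).

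The second Flt1 probe gave the same order between these groups. A_43_P12015 averaged -2.37 ± 0.11 in blastocyst lines and -3.63 ± 0.40 in bone marrow lines (SD, n = 3 each), with arrays from -2.58 to -2.23 in blastocyst lines and from -4.26 to -2.78 in bone marrow lines. Its highest bone marrow array was again array B of RMAPC-1. It was 2.40-fold higher in blastocyst lines (1.26 ± 0.22, adjusted p = 0.0130), and without array A of RMAPC-1 the difference was 1.10 (adjusted p = 0.0644).

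In RClone-2 the Flt1 probes disagreed. A_44_P520123 had -0.41 and -0.64 there, within the range of the bone marrow arrays, whereas A_43_P12015 had -2.46 and -2.34, among the blastocyst arrays. Against RClone-2, A_44_P520123 was 8.95-fold higher in blastocyst lines (3.16 ± 0.23, adjusted p = 0.000159), while A_43_P12015 differed by 0.03 ± 0.31 (adjusted p = 0.942). In bone marrow lines A_44_P520123 was higher than in RClone-2 by 0.70 ± 0.23 (adjusted p = 0.0485) and A_43_P12015 was lower by 1.23 ± 0.31 (adjusted p = 0.0204). The lower call of A_43_P12015 did not hold when array A of RMAPC-1 was dropped (-1.07, adjusted p = 0.120), with normexp (-0.54, adjusted p = 0.225) or within slides 2 and 4 (-1.28, adjusted p = 0.116). The higher call of A_44_P520123 in bone marrow lines did not hold without Fi1, Fi2, 3C3, CL19 or RMAPC-1 (adjusted p 0.0557 to 0.0970). Leaving out array A of RMAPC-1 gave 1.22 (adjusted p = 0.166), leaving out its array B gave 0.18 (adjusted p = 0.850), and A arrays alone gave -0.07. Which transcript each Flt1 probe reads was not tested.

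Kdr, the main signalling receptor, was dim everywhere, although it passed as above background on all 14 arrays. Its levels were -4.17 and -4.47 in Fi1, -4.51 and -4.68 in Fi2, and -4.84 and -4.56 in Wk8. They were -5.07 and -5.45 in CL19, -4.80 and -5.24 in 3C3, and -4.76 on array A and -5.73 on array B of RMAPC-1. The groups overlapped by array, since array A of RMAPC-1 and array A of 3C3 lay above array A of Wk8, but the line means did not overlap. Kdr was 1.55-fold higher in blastocyst lines (0.63 ± 0.15, adjusted p = 0.0254). It no longer passed without Fi1, Fi2, 3C3, CL19 or RMAPC-1 (adjusted p 0.0539 to 0.0804) or without either array of RMAPC-1 (adjusted p = 0.0551 without A and 0.0891 without B). With normexp background correction the difference was 0.20 (adjusted p = 0.821).

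RClone-2 had -5.48 and -6.15 for Kdr, the lowest line mean of the 7. Kdr was 2.42-fold higher in blastocyst lines than in RClone-2 (1.27 ± 0.21, adjusted p = 0.00407). In bone marrow lines it was 1.56-fold higher (0.64 ± 0.21, adjusted p = 0.0477), and this did not hold without Fi2, 3C3, CL19 or RMAPC-1 (adjusted p 0.0737 to 0.102) or on dropping array A of RMAPC-1 (0.48, adjusted p = 0.278).

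Tie1 was read by a pair of probes that gave like results. On A_44_P520235 its levels were -1.86 and -1.82 in Fi1, -2.67 and -2.60 in Fi2, and -2.48 and -2.17 in Wk8. They were -3.53 and -3.24 in CL19, -4.33 and -3.47 in 3C3, and -4.06 on array A and -3.44 on array B of RMAPC-1. No bone marrow array reached a blastocyst array, and Fi1 had the highest mean. Tie1 was 2.66-fold higher in blastocyst lines on this probe (1.41 ± 0.25, adjusted p = 0.0129) and 2.75-fold higher on A_44_P395771 (1.46 ± 0.24, adjusted p = 0.0116). Without the line RMAPC-1 the differences were 1.38 (adjusted p = 0.0490) and 1.37 (adjusted p = 0.0456).

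Tek followed Tie1 with a smaller and less stable difference. On A_44_P534601 its levels were -1.53 and -1.59 in Fi1, -1.67 and -2.06 in Fi2, and -2.33 and -2.09 in Wk8. They were -2.44 and -2.60 in CL19, -3.37 and -2.88 in 3C3, and -4.26 on array A and -2.57 on array B of RMAPC-1. The groups did not overlap, but Wk8 and CL19 were close to each other. Tek was 2.20-fold higher in blastocyst lines (1.14 ± 0.28, adjusted p = 0.0294). This did not hold without Fi1, Fi2, 3C3 or RMAPC-1 (adjusted p 0.0688 to 0.0895) or without either array of RMAPC-1 (adjusted p = 0.0580 without A and 0.0572 without B). The second Tek probe, A_44_P335594, was above background on 3 of 14 arrays, those of Fi1 and array B of Wk8, and differed by 0.90 ± 0.44 (adjusted p = 0.165).

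Both receptors were below background in RClone-2, so folds against it are given as lower bounds. The mean of the brighter group is set against the lowest signal called above background on each RClone-2 array. The probe's own signal is used where it is higher. A spot above that lowest signal can still fail: on array A of Fi2 the dim Tek probe failed at -5.80. The lowest signal called above background there was -6.37. The words "at least" thus refer to the signal used and not to a strict limit of detection. Here and below, an adjusted p beside a lower bound belongs to the limma difference of the measured levels. The bounds themselves were not tested. The bright Tek probe and both Tie1 probes entered the test through stem cell lines alone, so the filter favoured their higher calls. In RClone-2 Tek had -7.83 and -8.30 on A_44_P534601, and Tie1 had -8.20 and -8.62 on A_44_P520235. Tek averaged -1.88 in blastocyst lines, at least 23.6-fold higher (adjusted p = 9.6e-05), and -3.02 in bone marrow lines, at least 10.7-fold higher (adjusted p = 0.000221). Tie1 averaged -2.27 in blastocyst lines, at least 18.0-fold higher (adjusted p = 5.5e-05), and -3.68 in bone marrow lines, at least 6.77-fold higher (adjusted p = 0.000164). The second Tie1 probe gave at least 8.64-fold and at least 3.14-fold. The dim Tek probe was at least 1.25-fold higher in blastocyst lines (adjusted p = 0.0462), but it had entered the test through Fi1 alone, a blastocyst line, so the filter favoured this call. It did not hold without Fi1, Wk8, CL19 or RMAPC-1 (adjusted p 0.0612 to 0.0864). The probe differed by 1.02 ± 0.62 in bone marrow lines (adjusted p = 0.229), where it was not above background.

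**Figure D3:**
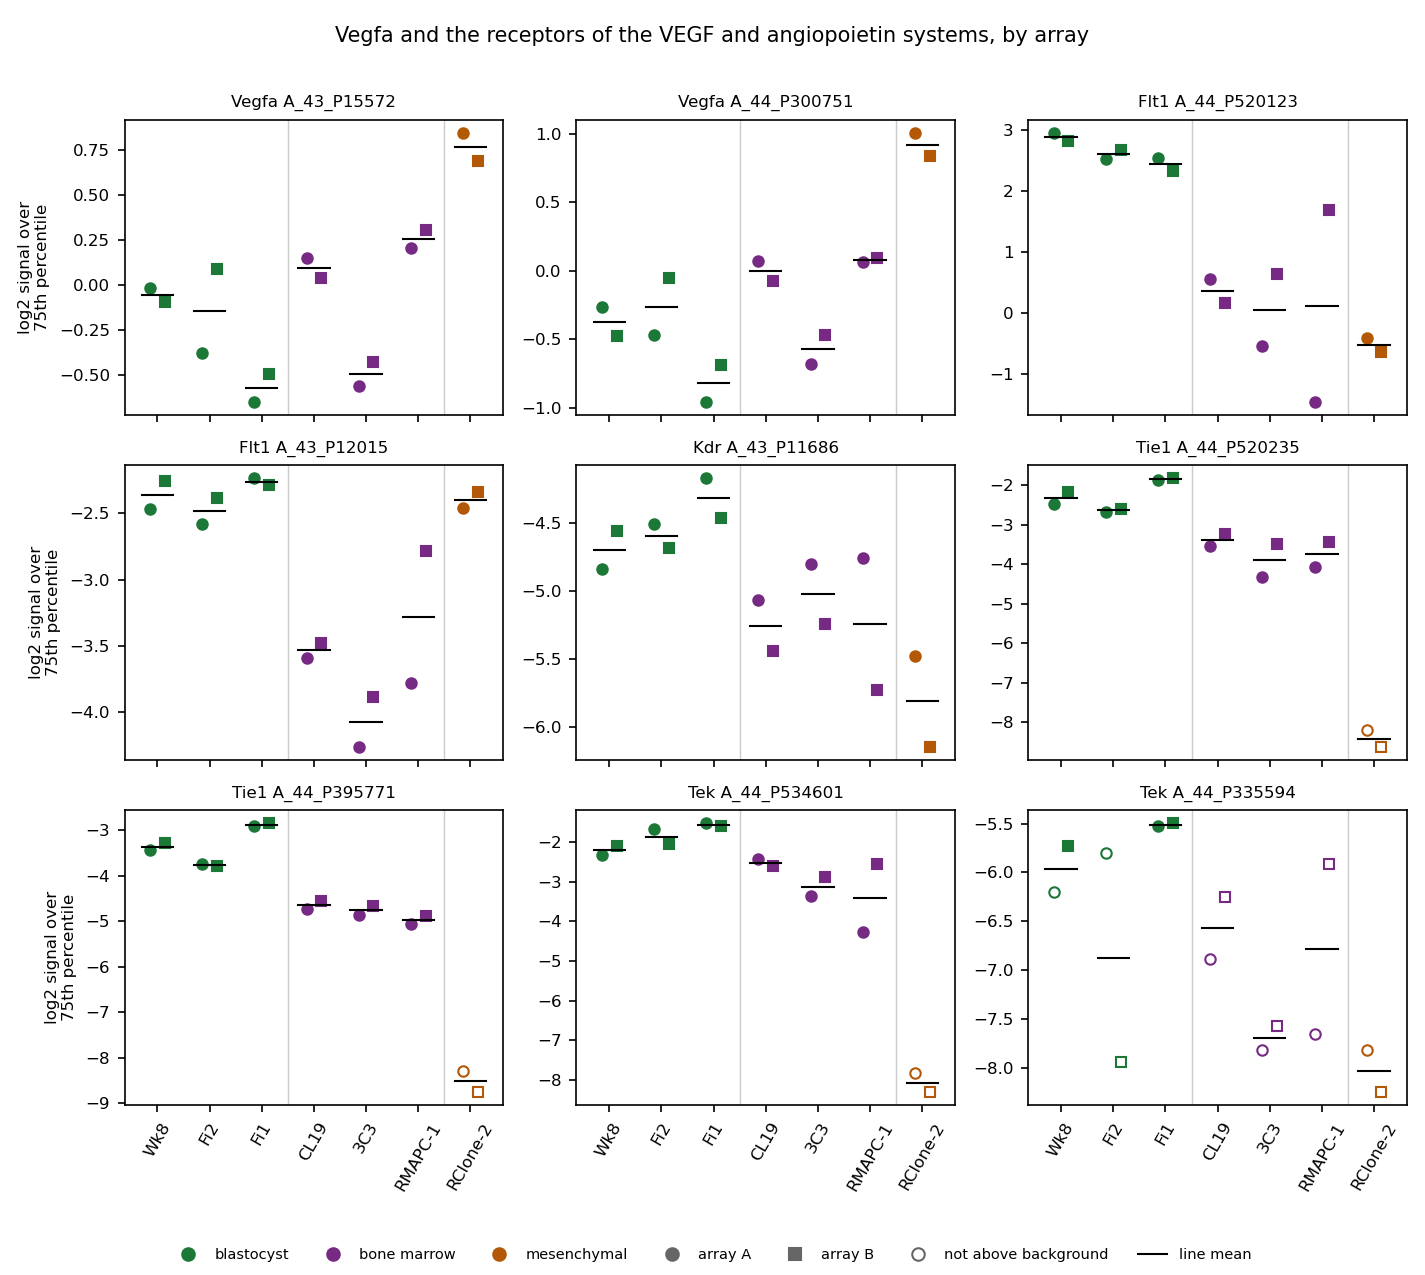
Level of each tested Vegfa, Flt1, Kdr, Tie1 and Tek probe (log2 processed signal over the 75th percentile of the array) by line, with circles for array A, squares for array B and bars for line means. Open symbols are not above background, and the vertical scales differ between panels. The A_44_P520123 panel of Flt1 shows the RMAPC-1 arrays at -1.45 and 1.68, and the Tie1 and Tek panels show RClone-2 below background.

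Vwf had the widest range of the endothelial marker genes. On A_44_P1025918 its levels were -0.44 and -0.08 in Fi1, -0.68 and 0.13 in Fi2, and 1.13 and 0.60 in Wk8. They were -1.67 and -2.05 in CL19, -3.18 and -2.62 in 3C3, and -3.48 on array A and -1.69 on array B of RMAPC-1. The groups did not overlap, and the Wistar-Kyoto line Wk8 stood above both Fischer blastocyst lines. Vwf was 5.89-fold higher in blastocyst lines (2.56 ± 0.41, adjusted p = 0.0107), with 2.26 (adjusted p = 0.0257) when array A of RMAPC-1 was left out. A second Vwf probe, A_43_P15902, was above background on 1 array only, array A of Wk8, and was not tested.

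RClone-2 had -8.42 and -8.84 for Vwf, below background on both arrays. Vwf thus entered the test through stem cell lines alone, so the filter favoured its higher calls. Vwf averaged 0.11 in blastocyst lines, at least 93.7-fold higher than in RClone-2 (adjusted p = 0.000107). It averaged -2.45 in bone marrow lines, at least 15.9-fold higher (adjusted p = 0.000441).

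Pecam1, an adhesion molecule of endothelial and blood cells, ran in the same direction without passing. Its levels were -1.86 and -2.13 in Fi1, -2.29 and -2.29 in Fi2, and -0.74 and -0.37 in Wk8. They were -3.15 and -3.22 in CL19, -3.84 and -3.62 in 3C3, and -3.49 on array A and -1.94 on array B of RMAPC-1. Array B of RMAPC-1 lay above both Fi2 arrays, and Wk8 again stood highest. The difference was 1.60 ± 0.51 (3.02-fold, adjusted p = 0.0577). Without array B of RMAPC-1 it was 1.85 and passed (adjusted p = 0.0309). In RClone-2 Pecam1 was below background at -8.32 and -8.72. It was at least 28.3-fold higher in blastocyst lines (mean -1.61, adjusted p = 0.000684) and at least 9.38-fold higher in bone marrow lines (mean -3.21, adjusted p = 0.00200). Pecam1 also entered the test through stem cell lines alone, so the filter favoured these calls.

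Cdh5, the cadherin of endothelial junctions, was the exception among the marker genes. Its 14 arrays lay between -4.94 and -4.21, above background but dim, with -4.78 and -4.68 in Fi1, -4.50 and -4.21 in RMAPC-1, and -4.66 and -4.43 in RClone-2. The 3 origins overlapped. The differences were -0.15 ± 0.15 between blastocyst and bone marrow lines (adjusted p = 0.480), -0.21 ± 0.22 against RClone-2 in blastocyst lines (adjusted p = 0.460) and -0.06 ± 0.22 in bone marrow lines (adjusted p = 0.851). Each of these changed sign under at least 1 alternative of scaling, background correction or lines used.

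**Figure D4:**
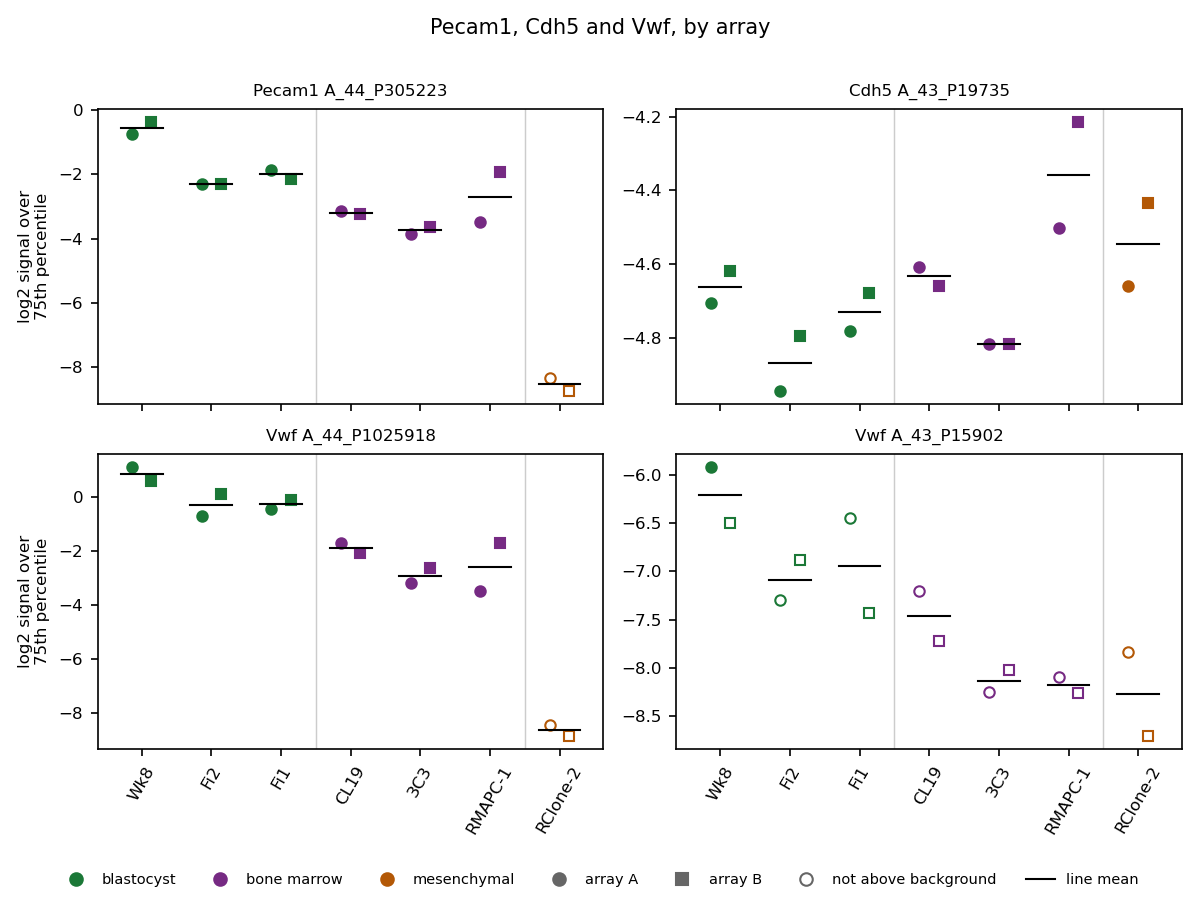
Level of the Pecam1, Cdh5 and Vwf probes (log2 processed signal over the 75th percentile of the array) by line, with circles for array A, squares for array B and bars for line means. Open symbols are not above background, and the vertical scales differ. Pecam1 and the bright Vwf probe are below background in RClone-2 alone, Cdh5 spans -4.94 to -4.21 over all lines, and the dim Vwf probe is above background on 1 array.

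Against RClone-2, 9 of the 12 tested member probes passed in blastocyst lines (8 higher, 1 lower), where 48.7% of all probes passed (22.9% higher, 25.8% lower). In bone marrow lines 9 passed as well (7 higher, 2 lower), where 46.8% of all probes passed (27.0% higher, 19.8% lower). The median over the member probes was 2.54 in blastocyst lines and 0.86 in bone marrow lines, against -0.07 and 0.19 over all probes. Both Tie1 probes, both Tek probes, Pecam1 and Vwf were below background in RClone-2. They entered the test through stem cell lines, so the filter favoured their higher calls. These counts and medians are thus no support for a direction. Without array A of RMAPC-1 5 of the 9 calls in bone marrow lines passed. Higher probes were 47.0% of all calls in blastocyst lines against RClone-2, and 69.2% with no scaling. The members that were lower than in RClone-2 were Vegfa in both comparisons and the A_43_P12015 probe of Flt1 in bone marrow lines. In RNA from whole cultures, fewer expressing cells and less RNA per cell cannot be told apart.

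Within slides 1 and 3, where CL19 is the only bone marrow line, the blastocyst lines were higher by 2.28 and 1.17 for Flt1, 1.97 for Vwf, 1.12 and 1.31 for Tie1, 0.64 for Tek and 0.72 for Kdr. None of these passed there with limma (adjusted p 0.178 to 0.316), although 6 of the 12 member probes had an unadjusted p under 0.05. No probe of the array passed in that fit, where 6177 had an unadjusted p under 0.05. With the slide as a block over arrays, Flt1 on both probes and Tie1 on A_44_P395771 passed.

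Markers of other cell types were measured in the same arrays, and their part in the member differences was not tested. Among all genes, each by its brightest tested probe, 8.25% were higher and 24.5% lower in blastocyst than in bone marrow lines. The sum of 6 tested blood cell and megakaryocyte markers, as linear signal over the 75th percentile, was 1.46 to 2.81 on blastocyst arrays, 0.724 to 1.65 on bone marrow arrays and 6.40 to 7.74 on RClone-2 arrays. Such a sum follows its brightest probe, which in RClone-2 was Gp1bb, a platelet glycoprotein subunit with mean log2 levels of -0.95 in blastocyst lines, -3.65 in bone marrow lines and 2.76 in RClone-2. Gata1, a red cell and megakaryocyte factor, ran the other way, with 0.12 in blastocyst lines, 0.00 in bone marrow lines and -7.21, below background, in RClone-2. Of that list Gp1bb was higher and Ppbp lower in blastocyst than in bone marrow lines (neither passed without the line RMAPC-1), and Ptprc, Pf4, Cd3e, Itgam, Mpo, Hbb and Gp1ba were on the array but too dim to be tested. The sum of 10 parietal endoderm markers was 1166 to 1631 on blastocyst, 808.7 to 1105 on bone marrow and 207.3 to 273.6 on RClone-2 arrays, with 7 of 10 higher in blastocyst than in bone marrow lines (5 without the line RMAPC-1). The sum of 7 primitive endoderm markers was 126.0 to 159.9, 181.4 to 220.4 and 2.63 to 2.97 in that order, with 3 of 7 lower in blastocyst lines (1 without array A of RMAPC-1 and none without the line). The sum of 9 mesenchymal markers was 1.69 to 3.83, 1.21 to 1.39 and 346.7 to 454.8, with 1 higher and 1 lower in blastocyst lines.

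Other genes of these pathways were counted by their brightest tested probe, and of all genes so counted 8.25% were higher and 24.5% lower in blastocyst than in bone marrow lines. In a list of further VEGF ligands and receptors, the co-receptors and the related factors Pdgfc and Pdgfd, none of 7 tested was higher. The lower one was Pdgfc, a platelet-derived growth factor that was not above background in either group and did not pass when array A of RMAPC-1 was dropped. Flt4 and Nrp1 were on the array but too dim to be tested. In the angiopoietin and TIE list 1 of 6 was higher, Angpt2, a Tek ligand that was not above background in bone marrow lines. Its means were -5.52 in blastocyst and -8.25 in bone marrow lines (2.72 ± 0.78, limma adjusted p = 0.0433). The lower bound of its fold, which was not tested, was 1.44. Angpt2 had entered the test through blastocyst lines alone, so the filter favoured this call, and it did not pass on dropping array A of RMAPC-1 (adjusted p = 0.0564). One gene of that list, Angpt1, the activating Tek ligand, passed as lower with neither group above background. Without the line RMAPC-1 neither passed.

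Endothelial surface, junction and vessel genes included 5 higher and 1 lower of 17 tested, and 3 higher and 1 lower on dropping array A of RMAPC-1. Cd93 and Icam2 entered the test through blastocyst lines alone. Lyve1, a hyaluronan receptor of lymphatic endothelium, averaged 0.33 in blastocyst and -3.13 in bone marrow lines (3.46 ± 0.62, adjusted p = 0.0137). Cd93, a C-type lectin-like receptor, was at least 5.48-fold higher in blastocyst lines (means -3.59 and, below background, -7.11 in bone marrow lines, adjusted p = 0.00991). Icam2, an adhesion molecule, was at least 1.88-fold higher (means -5.13 and -7.74, adjusted p = 0.0146). The lower gene was Gpihbp1 (-0.59 ± 0.14, adjusted p = 0.0276). Without the line RMAPC-1, 4 genes of this list were higher and none lower.

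Of 12 tested genes of Notch, apelin, sphingosine phosphate, ALK1 and endothelin signalling, 2 were higher and 7 lower. The ephrin genes of this list could not be tested. Of the lower ones Ednrb was above background in neither group, and Notch1 on no blastocyst array. Notch1 had entered the test through bone marrow lines alone, so the filter favoured its lower call. Acvrl1, the ALK1 receptor of endothelial BMP signalling, was higher by 3.08 ± 0.36 (adjusted p = 0.00632, above background on 4 of 6 bone marrow arrays) and Edn1, the vasoconstrictor peptide endothelin, by 1.96 ± 0.43 (adjusted p = 0.0221). Apln, the apelin peptide, was lower by 2.63 ± 0.64 (adjusted p = 0.0291), with means of -2.56 in blastocyst and 0.07 in bone marrow lines, and it did not pass when array A of RMAPC-1 was dropped (adjusted p = 0.0538). With RMAPC-1 left out as a line, 1 was higher and 3 were lower, and on dropping its array A 2 were higher and 3 lower.

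Of 18 tested endothelial transcription factors 3 were higher and 6 lower (2 and 4 on dropping array A of RMAPC-1). The higher ones were Erg (2.43 ± 0.49, adjusted p = 0.0176), an ETS factor of endothelium, Fli1 (1.69 ± 0.44, adjusted p = 0.0348), a related ETS factor above background on 1 of 6 bone marrow arrays, and Nr2f2 (1.62 ± 0.22, adjusted p = 0.00799), a factor of venous identity. The lower ones with the widest differences were Klf4 (-1.05 ± 0.16, adjusted p = 0.00940), Foxo1 (means -1.92 in blastocyst and -0.92 in bone marrow lines, adjusted p = 0.00717) and Foxc2 (-0.81 ± 0.11, adjusted p = 0.00748). Without RMAPC-1, 1 factor was higher and 3 were lower, and Erg (adjusted p = 0.0588) and Fli1 (adjusted p = 0.0709) no longer passed. Without its array A alone, Erg differed by 1.59 (adjusted p = 0.214). Fli1 had entered the test through blastocyst lines alone, so the filter favoured its higher call.

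Of 9 tested hypoxia factors, which act upstream of Vegfa, 2 were higher and 2 lower. Epas1, a hypoxia-inducible factor, was higher by 1.37 ± 0.17 (adjusted p = 0.00711) and its partner Arnt by 0.53 ± 0.13 (adjusted p = 0.0320). Arnt2 was lower by 2.13 ± 0.45 (adjusted p = 0.0201) and Hif1a by 0.74 ± 0.16 (adjusted p = 0.0199). Without the line RMAPC-1, 1 was higher and none lower, and on dropping its array A 1 was higher and 2 lower.

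**Figure D5:**
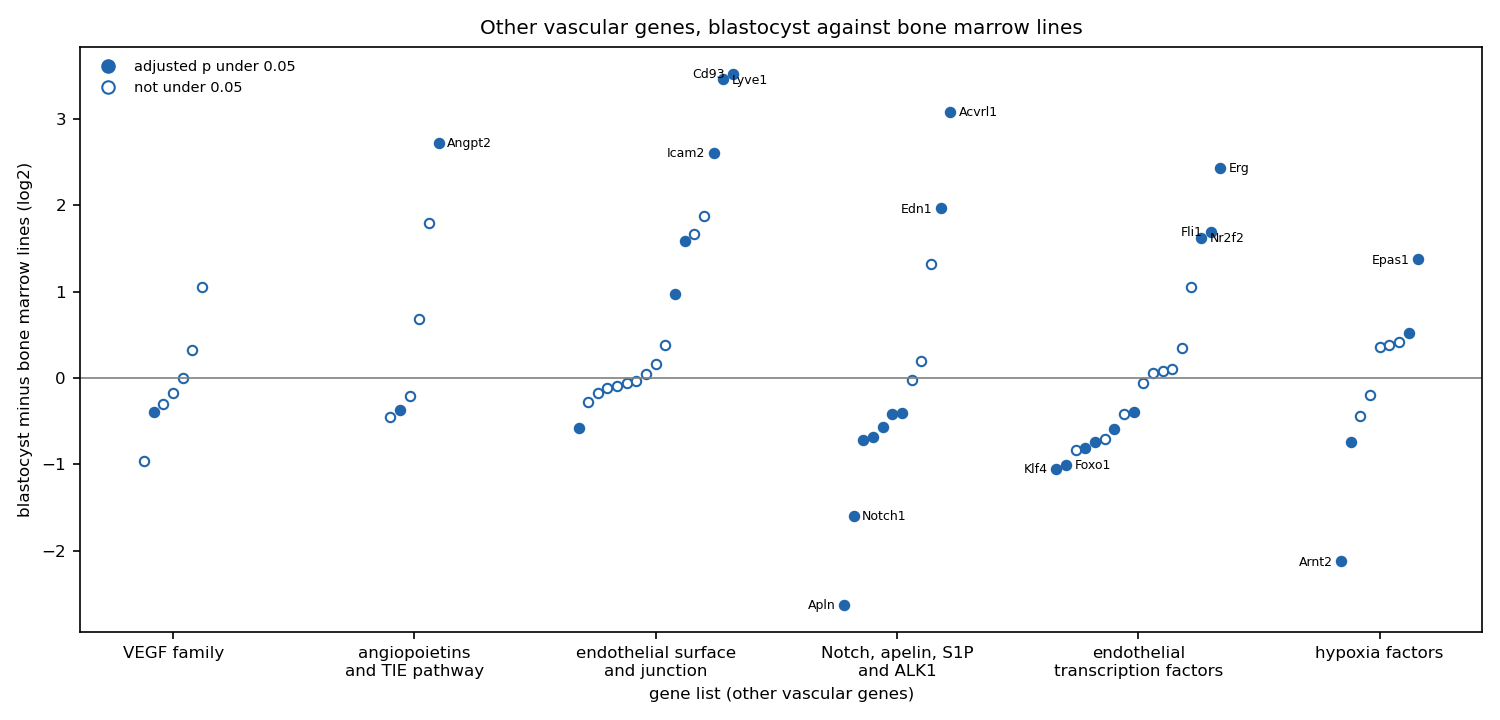
Log2 difference, blastocyst minus bone marrow lines, for every tested gene of 6 lists of other vascular genes, each gene by its brightest tested probe. Filled points have an adjusted p under 0.05 (limma, over all probes), and names mark those described by the naming rule that differ by more than 1. Cd93, Lyve1 and Acvrl1 lie above 3, and Apln and Arnt2 lie below -2.

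Against RClone-2 more genes of the VEGF and angiopoietin lists were lower than higher, as counted beside 22.4% higher and 26.4% lower among all genes for blastocyst lines and 26.9% higher and 19.5% lower for bone marrow lines. In the list of VEGF and related genes 1 of 7 was higher and 5 lower in blastocyst lines, and 1 higher and 4 lower in bone marrow lines, where the higher gene was Pdgfd and Pdgfc was among the lower ones. Vegfc, a ligand of lymphatic growth, was lower by 5.62 ± 0.72 in blastocyst and by 6.68 ± 0.72 in bone marrow lines, with a level of 3.51 in RClone-2. Pdgfd, a platelet-derived growth factor, had means of -2.72 in blastocyst and -2.42 in bone marrow lines and no signal above background in RClone-2. In the angiopoietin and TIE list 1 of 6 was higher and 4 were lower in each comparison. The higher one was Ptprb, a phosphatase of the TIE system. The widest lower ones were Angpt4, Angptl4 and Angptl2, at 2.91, 3.16 and 1.56 in RClone-2. Pdgfc, Nrp2, Angpt1 and Angpt4 entered the test through RClone-2 alone, so the filter favoured their lower calls. Likewise Pdgfd and Ptprb entered through stem cell lines alone, which favoured their higher calls. The counts of these lists are thus no support for a direction. The surface and junction list had 7 higher and 6 lower of 17 in blastocyst lines, and 7 higher and 5 lower in bone marrow lines (3 and 5 on dropping array A of RMAPC-1, 4 and 5 without the line), with Esam and Lyve1 not above background in RClone-2 while Eng and Mmrn2 were lower in both groups of stem cell lines.

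Transcription factors were 6 higher and 5 lower of 18 in blastocyst lines. In bone marrow lines 7 were higher and 4 lower (7 and 2 without RMAPC-1). Hhex, Lmo2 and Erg were not above background in RClone-2. Like Esam and Lyve1, these genes entered the test through stem cell lines alone, so the filter favoured their higher calls. Gata2 was lower in both comparisons (-2.02 ± 0.25 and -1.42 ± 0.25), and Klf4 and Foxc2 were among the lower factors in blastocyst lines. The Notch, apelin and ALK1 list had 4 higher and 5 lower of 12 in blastocyst lines, and 5 higher and 3 lower in bone marrow lines (3 and 3 without RMAPC-1). Of the 9 hypoxia factors 3 were higher and none lower in each comparison: Egln3, a prolyl hydroxylase (6.22 ± 0.19 and 5.86 ± 0.19), Epas1 (4.03 ± 0.24 and 2.65 ± 0.24) and Arnt. Vegfa was lower in both comparisons on A_44_P300751 and did not pass on A_43_P15572. Its relation to these factors was not tested. These comparisons share RClone-2 and are given side by side.

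The order of the lines was alike among Vwf, Pecam1 and A_44_P520123 of Flt1 at its top, where Wk8 came first. For Tie1, Tek and Kdr Fi1 came first. The genes closest in pattern to a member were searched among 10623 genes over the 6 stem cell line means, which share their arrays and slides. Closest to Flt1 were Itfg2 and Trpm4 (Pearson r = 0.9975 each) and Bsdc1 (0.9973). Closest to Vwf were Miga2 (0.9989), Acbd4 and Pygl, and closest to Tie1 were Adam17 (0.9984), Lrrc17 (0.9966) and Nr2f2 (0.9962). For Tek they were Trim21 (0.9940), Ncbp3 and Egln2, and for Pecam1 Parp16 (0.9976), Hpse and Pakap. For Kdr they were Giot1 (0.9919), Ubd and Dmtf1, for Vegfa Ide (0.9875), Ccnb1ip1 and Pex10, and for Cdh5 Or7h7b (0.9730), Cyp4f6 and Kmt2a. With 6 points and that many genes, such values are a description only.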

How the data were processed

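Total RNA of 7 rat lines, 1 µg per array with 10 spiked-in control transcripts per the labels' protocols, was labelled with Cy3 and hybridized to 14 arrays (4 slides). Per the file headers and the submitters' processing notes the authors extracted spots with Agilent Feature Extraction 10.7.3.1. The deposited scanner files give each spot's processed, mean and background signal as an intensity with no scaling from array to array. Their 0 or 1 flags are other values deposited beside it. A deposited table of the whole series has log2 values, which equalled the log2 processed signal (largest difference 5.2e-14).

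The log2 processed signal was scaled to each array's 75th percentile, taken over its 43379 spots that are no controls. Outlier spots were dropped (65 to 193 per array) and spots of a probe were averaged. A probe was tested where some line had it above background on A and on B (29309 of 41012). The 7 line means of a probe entered limma 3.58.1 (lmFit and eBayes under R 4.3.3), which left 4 residual degrees of freedom, and p-values had Benjamini-Hochberg adjustment and a threshold of 0.05. The fit was also run on simulated data with known changes. The number of lines limits the precision, and p-values measure the spread between these lines. Names were updated through RefSeq (GRCr8), where 17383 probes were found, the other 23629 staying under the files' own names, and positions are those of the files. The members and gene lists were chosen with earlier results of these data known. Named are all member probes, up to 3 called genes per list, comparison and direction with the widest difference, and the 3 genes most alike to each member over the stem cell lines, and only part of these is printed. Alternatives changed the background correction, normalization, filter, probe choice, block, slide and arrays or lines left out. List counts without RMAPC-1 were added after the data were seen. Array letters were checked for pairing: A minus B gaps of different lines correlated at -0.243 to 0.184 over 21 pairs of lines, so the letter does not pair samples. Figures were drawn with matplotlib 3.10.9.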

Additional observations from a re-analysis of the deposited data

Results flagged for a closer look

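Among 26 groups of 6 arrays (13 member probes in blastocyst and in bone marrow arrays), 2 held an array far from the others by Dixon's ratio. For independent arrays chance alone marks about 1 in 20 groups. These arrays are pairs from the same lines, so that rate need not hold here. Pecam1 had -1.94 on array B of RMAPC-1, where the nearest bone marrow array had -3.15. The dim Tek probe A_44_P335594 had -7.94 on array B of Fi2, where the nearest blastocyst array had -6.20, and neither of these 2 values is above background.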

How the results depend on the processing

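The 7 member probes called between blastocyst and bone marrow lines became 3 with the slide as a block, 0 with slide pair as a model term (6 at an unadjusted p under 0.05 in limma), 0 within slides 1 and 3 (6 unadjusted), 3 with normexp, 3 of 6 among probes above background on all 14 arrays, and 4 without array A of RMAPC-1. Over all probes 9492 were called in this comparison, against 1618 with normexp, 3597 with the slide as a block, 0 with the slide pair (7577 unadjusted), 0 within slides 1 and 3 (6177 unadjusted), 3025 without A arrays, 6182 without B arrays, 5601 without array A of RMAPC-1, 4273 without Fi1, 3613 without 3C3 and 3582 without RMAPC-1. Against RClone-2 14268 were called in blastocyst lines (6522 with normexp, 7257 with the slide pair) and 13712 in bone marrow lines (6891 with normexp). Higher probes were 28.2% of calls, against 45.7% and 44.3% with other centring, and 40.7% with normexp. The 9 called against RClone-2 in blastocyst lines became 4 of 6 among probes above background everywhere. In each comparison that filter left only 6 member probes to test, so a smaller count with it need not mean calls lost. The 9 in bone marrow lines became 2 with normexp and 4 of 6 among probes above background everywhere. They became 5 within slides 2 and 4, 5 without A arrays and 5 without array A of RMAPC-1. Array letters do not pair samples, and with the letter as a replicate block the counts were 8, 9 and 8. Signs turned as follows. Between blastocyst and bone marrow lines, with no scaling, Cdh5 was 0.33 and Vegfa 0.27 and 0.16. In blastocyst lines against RClone-2, Cdh5 was 0.24 with no scaling and 0.0294 with normexp, and Flt1 A_43_P12015 was -0.1116 with either slide term, -0.0364 with quantile normalization and -0.0227 to 0.0882 with a line left out. In bone marrow lines against RClone-2, Cdh5 was 0.0434 with normexp, 0.0174 without B arrays and -0.1784 to 0.0504 with a line left out, and Flt1 A_44_P520123 was -0.068 without B arrays. The cause was not tested. In the comparison of blastocyst and bone marrow lines, both Flt1 probes, both Tie1 probes and Vwf passed whichever line was left out. Kdr, Cdh5 and the second Tek and Vwf probes were dim, which limits their precision.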
